A study of Mus musculus with 12 samples.

Results

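Matrix metalloproteases (MMPs), the related ADAMTS proteases and the tissue inhibitors of metalloproteases (TIMPs) were followed in mouse embryonic stem cells before and during differentiation. The members were the non-control probes whose gene name on the array begins with Mmp or Adamts and a number, or is Timp1, Timp2, Timp3 or Timp4. The files of undifferentiated cells and of embryoid body day 4 carry an older annotation, in which 72 of 41174 probes bear such a name. Of these, 65 bear it in the newer annotation of the other files as well, and they stand for 42 genes. For each gene the probe with the highest mean was used, and a gene entered the tests where the scanner software flagged the spot as well above background on both arrays of some group. The array holds 30180 genes and unnamed features in all, of which 18475 were tested, 32 of the 42 members among them.

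Total RNA of strain 129 embryonic stem cells was hybridised to 12 one-colour arrays, as 6 groups with 2 arrays each. They comprised undifferentiated cells (sample titles name LIF, the cytokine that holds mouse embryonic stem cells undifferentiated), embryoid bodies (EB, floating aggregates of differentiating cells) at days 1, 3 and 4, and monolayer cultures (ML, attached cells) at days 1 and 3. No treatment, transgene or knockout is named for any group, and whether undifferentiated cells were grown on feeder cells is not given in the sources used here. The 2 arrays of a group are labelled clone 1 and clone 2 (replicates 1 and 2 below), and the submitters describe independent experiments by different people, so a p-value measures the spread between these arrays only.

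MMPs are zinc-dependent proteases that are made as inactive precursors and, once activated, cut collagens, other matrix proteins and cell-surface proteins. Collagenases, stromelysins and gelatinases are secreted, whereas membrane-type MMPs stay anchored at the cell surface, where Mmp14 with Timp2 activates the precursor of Mmp2. ADAMTS proteases bind the matrix and include enzymes that trim procollagens and enzymes that cut large proteoglycans such as versican. TIMPs block the active site of MMPs, and Timp3 also inhibits several ADAMTS proteases.

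All levels below are log2 of the spot signal relative to the 75th percentile of its own array, so a level of 0 is that percentile. Levels of different genes come from different probes and are not set against each other. Between 52.1% and 63.8% of spots were well above background per array, and the 75th percentile lay between 326 and 596 intensity units. The undifferentiated arrays shared a slide and scan day, EB day 4 another slide and scan day, EB days 1 and 3 a slide, and ML days 1 and 3 a slide of the same scan day. Every difference from undifferentiated cells or from EB day 4 therefore cannot be told apart from slide and scan day, while the change between days 1 and 3 lay within a slide. EB and ML of days 1 and 3 lay on separate slides, so every difference between these formats cannot be told apart from slide. EB day 4 was also read on another scanner, and undifferentiated cells, EB day 4 and the other groups each have their own version of the scanner software. The label of undifferentiated embryonic stem cells was borne out by 8 matched markers of that state (such as Pou5f1 and Sox2), with a median level of 4.42 there. These markers were well above background in every group, but their median was lower in the other groups, down to 0.94 at EB day 4. In bulk RNA, fewer cells of a type and less RNA per cell cannot be told apart.

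The family ranged from genes measurable in every group to genes above background in none, 7 of the 10 latter being secreted MMPs. Of the 42 genes, 20 were well above background on both arrays of all 6 groups. They comprise Timp1, Timp2 and Timp3, the gelatinases Mmp2 and Mmp9, the membrane-type genes Mmp14, Mmp15, Mmp17 and Mmp25, Mmp11, Mmp23, and 9 ADAMTS genes (Adamts1, 2, 4, 7, 8, 9, 10, 14 and 15). In no group were both arrays above background for 10 genes, Mmp1a, Mmp7, Mmp8, Mmp12, Mmp19, Mmp20, Mmp21, Adamts13, Adamts16 and Adamts18. Among these, Mmp21 (level -3.70) and Adamts18 (-3.10) were above background on the first undifferentiated array alone. The number of the 42 genes above background on both arrays was 28 (66.7%) in undifferentiated cells, 30 (71.4%) at EB day 1, 27 (64.3%) at EB day 3, 24 (57.1%) at EB day 4, 23 (54.8%) at ML day 1 and 25 (59.5%) at ML day 3. Over all 30180 genes and unnamed features the shares were 57.7%, 53.3%, 54.9%, 48.8%, 54.2% and 54.7% in the same order, also lower at EB day 4 than in undifferentiated cells. Adamts6 had a probe under the older annotation only, and both its arrays were above background in 1 group, ML day 3.

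**Figure D1:**
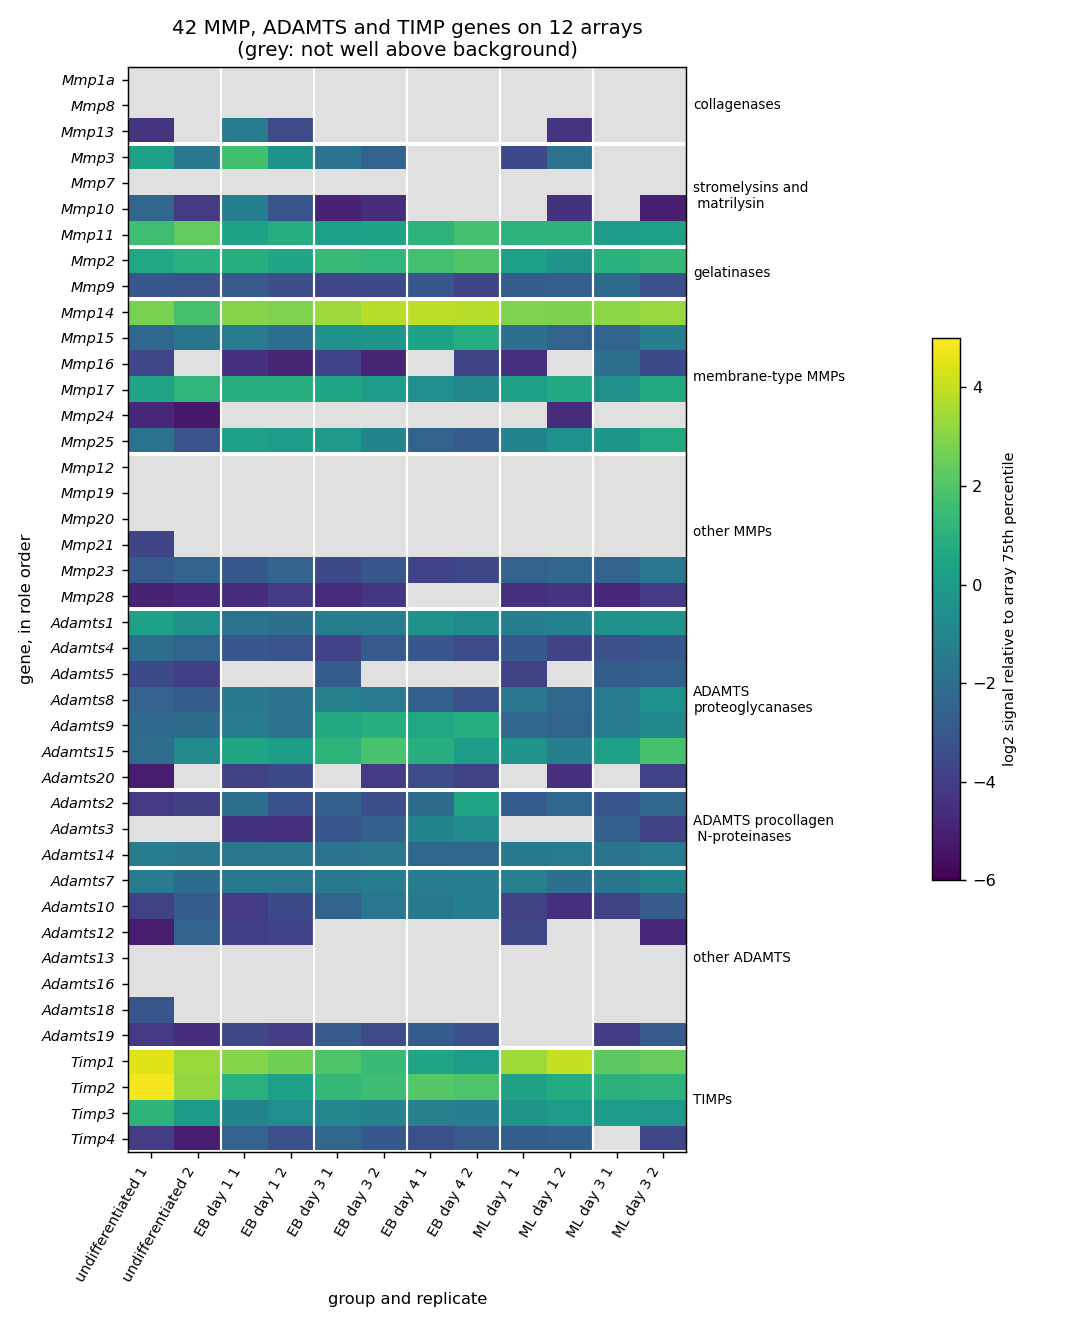
Log2 signal relative to the array's 75th percentile for 42 genes (rows, by role) on 12 arrays (columns, by group and replicate), with cells in grey where the spot was not well above background. The 10 genes without a group above background on both arrays include Mmp1a, Mmp8, Mmp12 and Mmp20, while Timp1, Mmp14 and Mmp2 are coloured on every array.

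Differential expression was tested with limma across all genes, with calls at an adjusted p under 0.05 (Benjamini-Hochberg). Against undifferentiated cells, 11 of the 32 genes were higher at EB day 4 and 8 lower, where 40.5% of all genes were called (18.6% higher, 21.9% lower). At EB day 3, 8 were higher and 5 lower (23.2% of all genes called, 12.6% higher and 10.6% lower). At EB day 1, 2 were higher and 4 lower (13.2%, of which 7.83% higher and 5.41% lower). The monolayer had 3 higher and 2 lower at day 1 (17.8% of all genes, 11.3% higher and 6.44% lower). Its day 3 had 5 higher and 4 lower (23.1%, 12.4% higher and 10.8% lower). The family's counts against undifferentiated cells thus grew with time in EB, as did the shares over all genes.

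Between days, 2 members rose and 1 fell from EB day 1 to day 3 (5.04% of all genes called, 2.87% up and 2.17% down). From ML day 1 to day 3, 4 rose and 2 fell (12.1%, 5.56% up and 6.51% down). From EB day 3 to day 4, 2 rose and 4 fell (12.5%, 3.88% up and 8.62% down). EB exceeded ML at day 3 for 2 genes and was below it for 0, both counts by limma, with 3.09% of all genes called (1.49% higher, 1.59% lower). At day 1 the formats differed for 0 members by limma, with 8 at an unadjusted p under 0.05, and for 0.065% of all genes (0.00541% higher in EB, 0.0595% lower). The change from day 1 to day 3 differed between formats for 0 members by limma, with 3 at an unadjusted p under 0.05, and for 0.227% of all genes (0.141% and 0.0866%). In all, 24 of the 32 genes (75%) were called in at least 1 of the 10 comparisons between groups, against 59.5% of all genes tested. The median change of the 32 genes lay between -0.25 (EB day 4 against undifferentiated) and 0.33 (ML day 3 against undifferentiated), genes below background in a group included at their measured signal. That of all genes lay between -0.14 and 0.13.

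Single arrays moved these counts, and the number called over all genes moved in the same direction in each fit named here. The count for EB day 1 was 2 without either of its arrays, that for EB day 3 was 8 without its replicate 2, and that for EB day 4 was 10 without its replicate 2. The ML day 1 count was 1 without either of its own arrays, 2 without either EB day 4 array, and 3 without either EB day 1 array or the second undifferentiated array. ML day 3 against day 1 gave 2 or 0 without ML day 1 replicate 1 or 2. EB day 3 against day 1 gave 1 without either array of EB day 1 or EB day 4 or without EB day 3 replicate 2. EB day 4 against day 3 gave 0 without EB day 3 replicate 1 or EB day 4 replicate 2, whereas leaving out EB day 4 replicate 1 gave 3. EB day 3 against ML day 3 gave 0, 1 or 5 without EB day 3 replicate 2, ML day 3 replicate 1 or ML day 3 replicate 2.

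**Figure D2:**
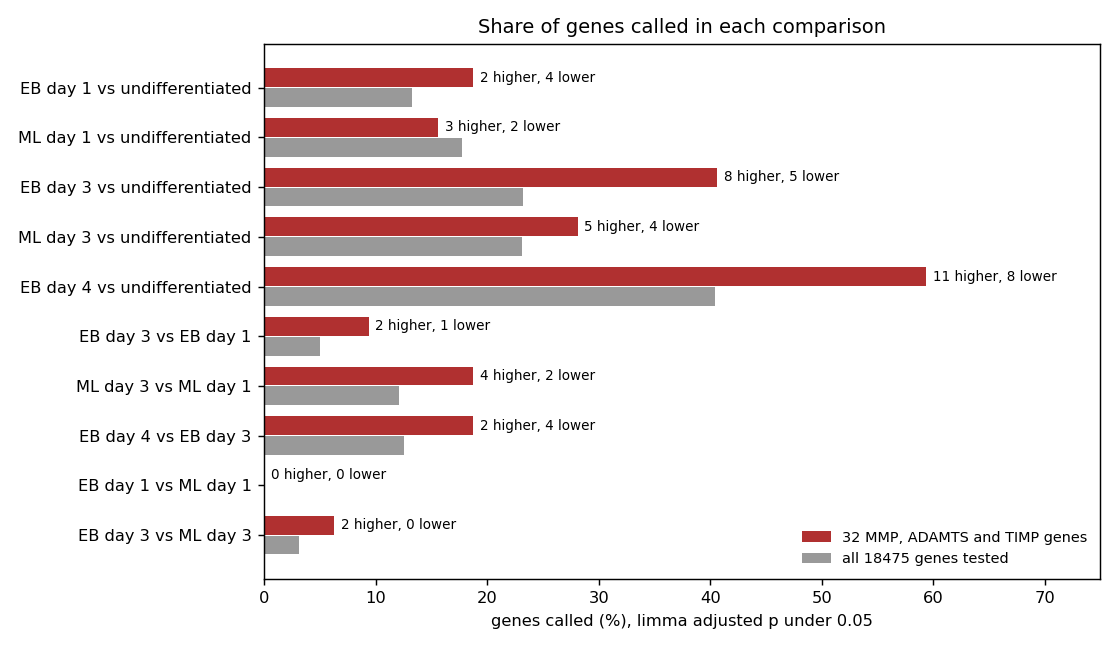
Percentage of genes called (limma adjusted p under 0.05, horizontal axis from 0) in each of 10 comparisons, for the 32 tested MMP, ADAMTS and TIMP genes (red, with the numbers higher and lower in the first group named) and for all 18475 genes tested (grey). The longest bars belong to EB day 4 against undifferentiated cells, with 11 genes higher and 8 lower, and the bar of EB day 1 against ML day 1 has no length for the family.

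Among the inhibitors, Timp1, Timp2 and Timp3 were highest in undifferentiated cells and Timp4 was lowest there. The 4 genes were called 16 times in 40 tests, 13 times lower and 3 times higher, against 15.1% of all tests over these 10 comparisons. That share counts both directions. Many of these comparisons share arrays, above all those of undifferentiated cells, so the 40 tests are not independent. Timp1, a secreted inhibitor of most soluble MMPs (probe on chromosome X, 20451675 to 20451733, build mm9, as for all probe positions below), measured 4.48 and 3.35 in undifferentiated cells, 3.02 and 2.67 at EB day 1, 1.96 and 1.42 at EB day 3, and 0.42 and 0.17 at EB day 4. In the monolayer it measured 3.45 and 4.03 at day 1 and 2.24 and 2.45 at day 3. Thus no EB group overlapped its neighbour in time, and the day 1 monolayer lay within the range of undifferentiated cells. Timp1 was 12.3-fold lower at EB day 4 than in undifferentiated cells (log2 change -3.62 ± 0.38, SE, n = 2 arrays per group, limma adjusted p = 0.000188), 4.68-fold lower at EB day 3 (-2.23 ± 0.38, adjusted p = 0.00442) and 2.96-fold lower at ML day 3 (-1.57 ± 0.38, adjusted p = 0.0185). It also fell from ML day 1 to day 3 (-1.39 ± 0.38, adjusted p = 0.0446) and from EB day 3 to day 4 (-1.40 ± 0.38, adjusted p = 0.0442). A further Timp1 probe, on the same chromosome at 20449905 to 20449964, gave -3.72 ± 0.39 for EB day 4 against undifferentiated cells, and the 2 probes correlated at 0.996 over the 12 arrays.

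Timp2, which inhibits Mmp2 and also helps Mmp14 to activate it (chromosome 11, 118163146 to 118163205), measured 4.86 and 3.20 in undifferentiated cells. The other groups were all below those arrays, at 0.99 and 0.22 at EB day 1, 1.32 and 1.59 at EB day 3, and 2.09 and 1.98 at EB day 4. At ML day 1 it measured 0.33 and 0.78, then 1.07 and 1.11 at ML day 3. Timp2 is the single member called lower than undifferentiated cells in all 5 comparisons. It was lower by 10.8-fold at EB day 1 (-3.43 ± 0.48, adjusted p = 0.00579), 11.1-fold at ML day 1 (-3.48 ± 0.48, adjusted p = 0.00558), 7.69-fold at ML day 3 (-2.94 ± 0.48, adjusted p = 0.0037), 5.99-fold at EB day 3 and 4.00-fold at EB day 4 (adjusted p = 0.00949). Its EB means went up again from day 1 to day 4 without a call between EB days 1 and 3 or 3 and 4. Without the first undifferentiated array the change at EB day 1 was -2.60 and at EB day 4 -1.17, and without the second it was -4.26 and -2.83, all still called. With the compared groups fitted alone, the Timp2 calls at EB day 3 (adjusted p = 0.0637), EB day 4 (0.0539) and ML day 1 (0.0525) ended. Timp3, the matrix-bound inhibitor (chromosome 10, 85811696 to 85811755), measured 1.14 and 0.00 in undifferentiated cells, -1.02 and -0.61 at EB day 1, -0.91 and -1.08 at EB day 3, and -1.19 and -1.31 at EB day 4. The ML arrays gave -0.31 and 0.06 at day 1 and 0.04 and -0.15 at day 3. The EB groups lay below undifferentiated cells, while both monolayer groups overlapped them. Timp3 was 2.61-fold lower at EB day 1 (-1.38 ± 0.35, adjusted p = 0.0331), 2.96-fold at EB day 3 (-1.56 ± 0.35, adjusted p = 0.0132) and 3.53-fold at EB day 4 (-1.82 ± 0.35, adjusted p = 0.00335).

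Timp4 (chromosome 6, 115196120 to 115196179) was dim, at -3.99 and -5.09 in undifferentiated cells, -2.52 and -3.30 at EB day 1, -2.28 and -2.97 at EB day 3, -3.33 and -2.87 at EB day 4, -2.77 and -2.61 at ML day 1, and -4.85 and -3.64 at ML day 3, where 1 of 2 arrays was above background. It was higher than in undifferentiated cells at ML day 1 (1.85 ± 0.50, adjusted p = 0.0348), EB day 3 (1.92 ± 0.50, adjusted p = 0.0239) and EB day 4 (1.44 ± 0.50, adjusted p = 0.044). Without the second undifferentiated array these changes were 1.30, 1.37 and 0.89 and none was called. Normexp correction ended the calls at ML day 1 (0.68, adjusted p = 0.077) and EB day 3 (0.56, 0.123). All 4 TIMP genes were higher on the first than on the second undifferentiated array, by 1.1 to 1.66 log2 units. Of the 16 TIMP calls, 8 ended when a single array was left out, namely every Timp4 call, Timp1 at ML day 3 against undifferentiated cells (adjusted p = 0.0772 without the first undifferentiated array, 0.0802 without ML day 3 replicate 1), Timp1 between days in ML (up to 0.277, without ML day 1 replicate 2) and between EB days 3 and 4 (up to 0.251, without EB day 3 replicate 1), and Timp3 at EB day 1 (up to 0.185, without EB day 1 replicate 1) and EB day 3 (0.0732, without EB day 3 replicate 2).

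**Figure D3:**
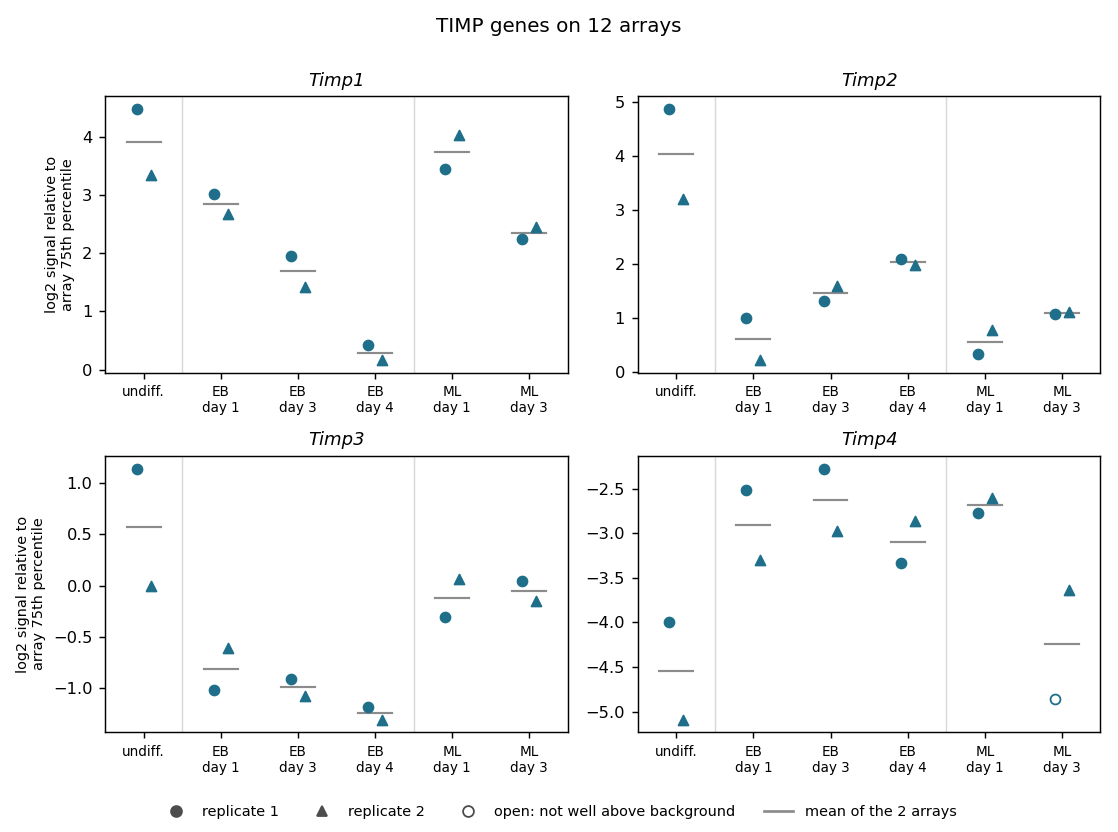
Log2 signal relative to the array's 75th percentile (vertical axis) of the 4 TIMP genes in 6 groups (horizontal axis), with a circle for replicate 1, a triangle for replicate 2, a line at their mean, and open symbols for spots not well above background. Timp1 declines from 4.48 and 3.35 in undifferentiated cells to 0.42 and 0.17 at EB day 4, Timp2 drops at day 1 of both formats, and the first undifferentiated array is the higher of the 2 for all 4 genes.

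Undifferentiated replicate 1 also carried more fibroblast-type RNA signal than any other array. Of 17 fibroblast markers listed, 16 were matched, and their summed signal, in multiples of the array's 75th percentile, was 156 on the first undifferentiated array and 45.5 on the second. It was 8.51 to 28.7 on the other 10 arrays. Among the 14 markers tested, 13 were higher on the first undifferentiated array (median gap 1.12 log2 units), and 5 were lower at EB day 1, 4 at ML day 1, 10 at EB day 3, 8 at ML day 3 and 9 at EB day 4 than in undifferentiated cells (1 was higher at EB day 4). Of all genes, 5.41%, 6.44%, 10.6%, 10.8% and 21.9% were lower in these comparisons, in the same order. Col1a2, a type I collagen chain, stood at 3.65 and 2.40 in undifferentiated cells and 0.74 and 0.03 at EB day 1, whereas Lum and Fap, also on the list, were not above background in undifferentiated cells. Their part in the TIMP differences was not tested. Leukocyte markers were mostly dim, with 3 of 10 above background on both undifferentiated arrays and 1 of 10 at EB day 4.

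The stromelysins Mmp3 and Mmp10 and the collagenase Mmp13 were detectable at EB day 1 and not above background on any array of EB day 4. The lowest signal flagged above background was higher at EB day 4 (-4.40 and -4.16) than on the other arrays (-5.74 to -4.79). Mmp10 at EB day 3, flagged at -4.96 and -4.60, lay below both EB day 4 limits. Stromelysins cut a wide range of matrix proteins and activate other MMP precursors, and Mmp13 is a main interstitial collagenase of rodents. The 3 genes lie in a stretch of chromosome 9 that holds 10 MMP genes and no other protein-coding gene over 427 kb (7272514 to 7699585, RefSeq, build GRCm38.p6), in the order Mmp13, Mmp12, Mmp1b, Mmp3, Mmp1a, Mmp10, Mmp8, Mmp27, Mmp20 and Mmp7. Of these, 8 had a member probe and Mmp1b and Mmp27 are not analysed here. Mmp13, Mmp3 and Mmp10 were the 3 of the 8 with both arrays of a group above background.

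Because the levels of these genes correlated over the arrays, the 250 bases upstream of their RefSeq start sites are shown 5′ to 3′ on the gene's strand, with Mmp1a, a neighbour not above background in any group, for comparison. Capitals mark the letters TGANTCA, the AP-1 motif, and TATAAA, the TATA motif, searched on both strands. The windows are chr9:7445572-7445821 (Mmp3), chr9:7502092-7502341 (Mmp10), chr9:7272264-7272513 (Mmp13) and chr9:7463891-7464140 (Mmp1a), all on the plus strand of build GRCm38.p6.
Mmp3: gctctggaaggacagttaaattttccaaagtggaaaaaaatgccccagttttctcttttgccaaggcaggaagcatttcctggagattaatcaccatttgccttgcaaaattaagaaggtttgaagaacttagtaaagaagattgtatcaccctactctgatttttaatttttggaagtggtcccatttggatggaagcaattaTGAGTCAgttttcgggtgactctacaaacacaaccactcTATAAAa
Mmp10: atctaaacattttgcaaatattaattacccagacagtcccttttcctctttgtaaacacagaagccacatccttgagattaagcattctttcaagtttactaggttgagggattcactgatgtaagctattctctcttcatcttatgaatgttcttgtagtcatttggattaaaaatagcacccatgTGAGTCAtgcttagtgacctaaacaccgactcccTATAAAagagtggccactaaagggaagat
Mmp13: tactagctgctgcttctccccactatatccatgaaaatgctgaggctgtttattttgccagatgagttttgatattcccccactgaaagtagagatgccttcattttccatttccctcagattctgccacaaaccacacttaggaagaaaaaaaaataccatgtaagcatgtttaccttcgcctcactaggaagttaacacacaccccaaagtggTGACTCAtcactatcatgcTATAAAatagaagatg
Mmp1a: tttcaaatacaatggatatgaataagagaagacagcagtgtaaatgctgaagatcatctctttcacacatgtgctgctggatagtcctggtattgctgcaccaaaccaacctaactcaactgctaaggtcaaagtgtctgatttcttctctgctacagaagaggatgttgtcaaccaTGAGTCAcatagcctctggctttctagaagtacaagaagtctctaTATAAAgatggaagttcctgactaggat
Each of these windows holds 1 AP-1 motif and 1 TATA motif. The AP-1 letters begin 46 bases upstream of the start in Mmp3, 63 in Mmp10, 35 in Mmp13 and 73 in Mmp1a, and the TATA letters lie between them and the start. The AP-1 motif occurs in 6.75% and TATAAA in 12.4% of 32851 RefSeq windows of this length. The motifs are a description of these letters and say nothing of what binds there, and Mmp1a carries both without a signal above background.

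Mmp3 (chromosome 9, 7455751 to 7455810, mm9) measured 0.30 and -1.64 in undifferentiated cells, 1.66 and -0.40 at EB day 1, -1.82 and -2.55 at EB day 3, and -3.57 and -1.91 at ML day 1. At EB day 4 (-5.43 and -6.41) and ML day 3 (-7.40 and -7.58) no array was well above background. The first 2 groups overlapped, and the arrays of EB day 4 and ML day 3 lay below all others. Mmp3 was at least 27.4-fold lower at ML day 3 (adjusted p = 0.00115) and at least 12.2-fold lower at EB day 4 (adjusted p = 0.00141) than in undifferentiated cells. These bounds set the dim arrays at the lowest signal called well above background on each. From ML day 1 to day 3 Mmp3 fell by at least 6.52-fold (adjusted p = 0.00932) and from EB day 3 to day 4 by at least 4.26-fold (adjusted p = 0.0238), and EB day 3 exceeded ML day 3 by at least 9.57-fold (adjusted p = 0.0142). The ML change lost its call without ML day 1 replicate 2 (adjusted p = 0.0855), the late EB change without EB day 3 replicate 1 or either EB day 4 array (up to 0.146), and the format difference without either EB day 3 array or ML day 3 replicate 1 (up to 0.0819). Normexp background correction ended the same 3 calls (adjusted p = 0.129, 0.303 and 0.194).

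Mmp10 (chromosome 9, 7510011 to 7510070, mm9) measured -2.39 and -4.12 in undifferentiated cells, -1.23 and -3.08 at EB day 1, -4.96 and -4.60 at EB day 3, -5.04 and -4.41 at ML day 1 and -5.43 and -5.06 at ML day 3, with 1 of 2 arrays above background in each monolayer group. At EB day 4 (-5.30 and -6.44) neither array was above background, and Mmp10 was at least 2.03-fold lower than in undifferentiated cells (adjusted p = 0.0154). That call ended without the first undifferentiated array (0.103), without EB day 4 replicate 2 (0.104) and with normexp correction (0.587). Mmp13 (chromosome 9, 7282762 to 7282821, mm9) was above background on both arrays at EB day 1 alone, at -1.36 and -3.44. Mmp13 entered the tests through that group only, so its high level there and any fall from it are not independent of the filter. The first undifferentiated array (-4.29 against -5.91 on the second) and the second ML day 1 array (-4.37 against -6.69) were also above background. EB day 3 (-5.59 and -7.52), EB day 4 (-6.63 and -6.35) and ML day 3 (-7.68 and -7.79) had no array above background. Mmp13 fell by at least 7.87-fold from EB day 1 to day 3 (adjusted p = 0.0402), a call that 7 arrays could each end, among them both EB day 1 arrays (0.235 and 0.0917) and EB day 3 replicate 2 (0.288).

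In the 3 genes replicate 1 exceeded replicate 2 by 1.62 to 1.93 log2 units in undifferentiated cells and by 1.84 to 2.08 at EB day 1, and replicate 2 was the higher at ML day 1 in all 3. Over all 32 members tested, replicate 1 was the higher for 21 in undifferentiated cells, 25 at EB day 1 and 12 at ML day 1, so this lean was not particular to the 3 genes. Fibroblast markers leaned the same way, with 12 of 14 higher in replicate 1 at EB day 1 (median gap 0.73) and 2 of 14 at ML day 1 (median gap -0.56). Their part in the Mmp3, Mmp10 and Mmp13 levels was not tested. The summed marker signal was 156 and 45.5 in undifferentiated cells and 18.0 and 13.6 at EB day 1, and Mmp3, Mmp10 and Mmp13 had their highest means at EB day 1. Over the 12 arrays the median level of the markers correlated at 0.65 with Mmp10, 0.44 with Mmp13 and 0.39 with Mmp3. The same median correlated at 0.76 with both Timp1 and Timp3 and at 0.37 with Timp2. With Adamts9 and Mmp15 it correlated at -0.78, with Adamts10 at -0.73, with Adamts3 at -0.72 and with Mmp14 at -0.71. Mmp25 (0.09) and Adamts8 (-0.04) showed little correlation with it. The part of the markers in these levels was not tested either. Over the 12 arrays, which share groups and scaling, Mmp3 correlated at 0.86 with Mmp10 and at 0.84 with Mmp13, and Mmp10 with Mmp13 at 0.84. Mmp3 and Mmp10 were above background on 8 of the 12 arrays and Mmp13 on 4, so these correlations rest in part on signals below background. At day 1 the excess of EB over ML missed the threshold for Mmp3 (3.37 ± 0.84 on the log2 scale, adjusted p = 0.23), Mmp10 (2.57 ± 0.69, adjusted p = 0.281) or Mmp13 (3.13 ± 0.95, adjusted p = 0.342). At ML day 1, 1 of 2 arrays was above background for Mmp10 and for Mmp13, so these differences rest in part on a signal below background.

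**Figure D4:**
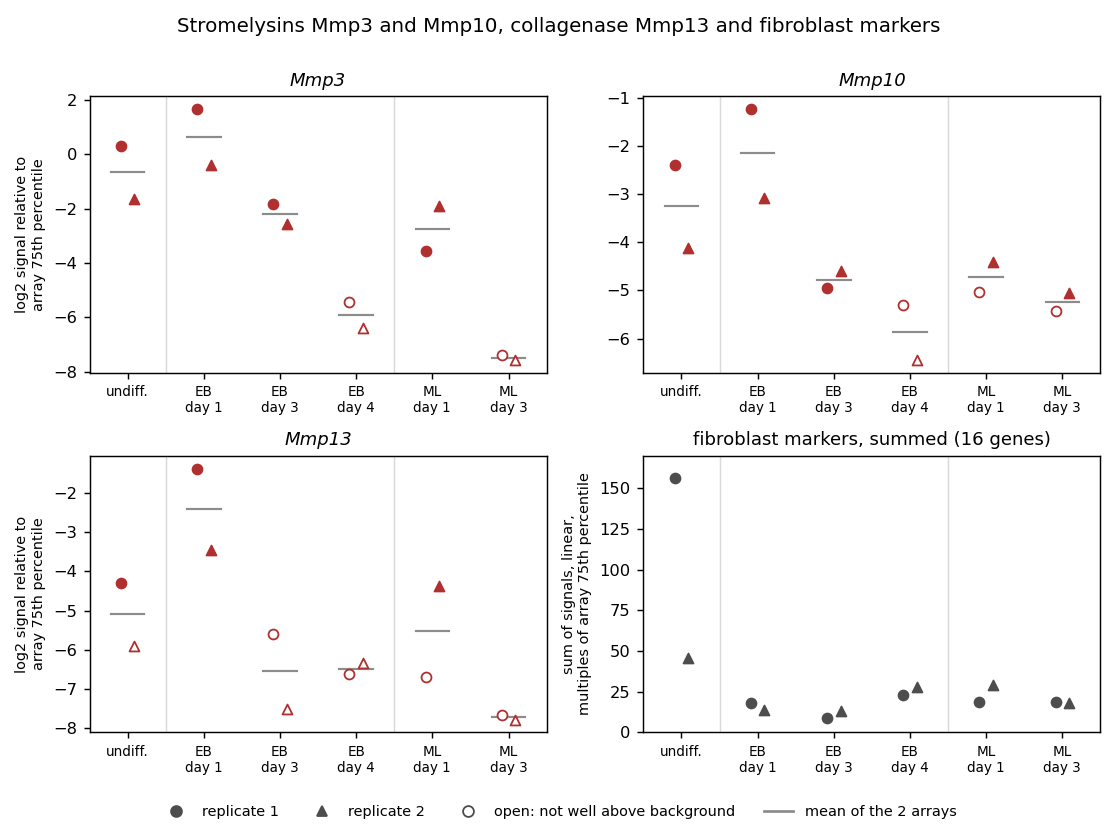
Log2 signal relative to the array's 75th percentile of Mmp3, Mmp10 and Mmp13 in 6 groups (circle, replicate 1; triangle, replicate 2; line, mean; open symbol, not well above background), and the summed linear signal of 16 fibroblast markers on the same arrays (lower right, axis from 0). All 3 genes have their highest mean at EB day 1 with replicate 1 on top, and the marker sum is 156 on the first undifferentiated array and at most 45.5 elsewhere.

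The remaining stromelysin, Mmp11, which furin activates inside the cell (chromosome 10, 75386026 to 75386085), followed another course. It measured 1.64 and 2.34 in undifferentiated cells, 0.38 and 0.80 at EB day 1, 0.19 and 0.33 at EB day 3, and 1.12 and 1.76 at EB day 4. In ML the levels were 1.11 and 1.13 at day 1 and 0.08 and 0.26 at day 3. It was thus lowest at day 3 of both formats, and EB day 4 overlapped undifferentiated cells. Mmp11 was lower than in undifferentiated cells at EB day 1 (-1.40 ± 0.30, adjusted p = 0.0203), EB day 3 (3.31-fold, -1.73 ± 0.30, adjusted p = 0.00461) and ML day 3 (3.53-fold, -1.82 ± 0.30, adjusted p = 0.00389), and rose 2.26-fold from EB day 3 to day 4 (1.18 ± 0.30, adjusted p = 0.0347). The rise was not called without any of 7 arrays (up to 0.223, without EB day 4 replicate 2), and the EB day 1 decrease ended without the second undifferentiated array or either EB day 1 array (up to 0.134).

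Of the gelatinases, which cut denatured collagen and basement membrane collagen, Mmp2 moved and Mmp9 was never called. Mmp2 (chromosome 8, 95376840 to 95376899) measured 0.55 and 0.99 in undifferentiated cells, 0.90 and 0.48 at EB day 1, 1.40 and 1.28 at EB day 3, and 1.71 and 2.03 at EB day 4. ML days 1 and 3 stood at 0.24 and -0.31, and at 1.03 and 1.31, respectively. Both formats were higher at day 3 than at day 1 without overlap. Mmp2 was 2.15-fold higher at EB day 4 than in undifferentiated cells (1.1 ± 0.27, adjusted p = 0.0112) and rose 2.31-fold from ML day 1 to day 3 (1.21 ± 0.27, adjusted p = 0.0236). The first call ended without the first undifferentiated array (0.066) or EB day 4 replicate 2 (0.0779), and the second without ML day 1 replicate 2 (0.191) or ML day 3 replicate 1 (0.0611). Mmp9 (chromosome 2, 164780620 to 164780679) measured -3.03 and -3.20 in undifferentiated cells, -2.94 and -3.39 at EB day 1, -3.67 and -3.56 at EB day 3, and -2.99 and -3.70 at EB day 4. Monolayer levels were -2.76 and -2.66 at day 1, then -2.18 and -3.33 at day 3. Its probe was printed 10 times on each array, and the SD between those spots was 0.082 to 0.357. The ML day 3 arrays, from separate samples, were 1.14 apart.

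Membrane-type MMPs split by course. Mmp14, the main activator of Mmp2 at the cell surface (chromosome 14, 55059969 to 55060028), measured 2.80 and 1.81 in undifferentiated cells, 3.01 and 2.88 at EB day 1, 3.38 and 3.82 at EB day 3, and 3.92 and 3.80 at EB day 4. At ML day 1 it measured 2.87 and 2.85, then 3.1 and 3.31 at ML day 3. Undifferentiated cells were below every other group. Mmp14 was 2.94-fold higher at EB day 4 (1.56 ± 0.31, adjusted p = 0.00409) and 2.45-fold higher at EB day 3 (1.29 ± 0.31, adjusted p = 0.0172) than in undifferentiated cells. Without the second undifferentiated array the change at EB day 4 was 1.06 and still called, whereas that at EB day 3 was 0.80 (adjusted p = 0.0723), and it also ended without EB day 3 replicate 2 (0.107). A further Mmp14 probe (55058775 to 55058834) gave 0.25 ± 0.33 at EB day 4 and was not called in either comparison, so the 2 probes disagree.

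Mmp15, a related transmembrane protease (chromosome 8, 97897703 to 97897762), measured -2.27 and -1.74 in undifferentiated cells, -1.42 and -2.0 at EB day 1, -0.40 and -0.20 at EB day 3 and 0.38 and 0.83 at EB day 4. The monolayer stayed at -1.98 and -2.50 at day 1 and -2.48 and -1.28 at day 3, overlapping undifferentiated cells. Mmp15 was 6.09-fold higher at EB day 4 (2.61 ± 0.41, adjusted p = 0.0013) and 3.26-fold higher at EB day 3 (1.71 ± 0.41, adjusted p = 0.0176), the latter not called without the first undifferentiated array (0.0818) or either EB day 3 array (0.0555 and 0.09). Mmp25, which is held at the membrane by a lipid anchor and is known from leukocytes (chromosome 17, 23767090 to 23767149), rose early and was low again at EB day 4. It measured -1.85 and -3.19 in undifferentiated cells, 0.19 and 0.04 at EB day 1, -0.03 and -1.05 at EB day 3, and -2.49 and -2.79 at EB day 4. The ML arrays gave -1.02 and -0.48 at day 1 and -0.21 and 0.62 at day 3. Undifferentiated cells and EB day 4 overlapped each other and lay below the other 4 groups. Mmp25 was higher than in undifferentiated cells at EB day 1 (6.20-fold, 2.63 ± 0.49, adjusted p = 0.0142), ML day 1 (3.40-fold, adjusted p = 0.0389), EB day 3 (3.94-fold, adjusted p = 0.0202) and ML day 3 (6.61-fold, 2.73 ± 0.49, adjusted p = 0.00575), and fell 4.29-fold from EB day 3 to day 4 (adjusted p = 0.0273). Leaving out the second undifferentiated array ended the calls at EB day 1 (0.066), ML day 1 (0.225) and EB day 3 (0.114), and leaving out any of EB day 3 replicate 1 and the EB day 4 arrays ended the late decrease (up to 0.18). The EB day 1 call also ended without either of its own arrays (0.0923 and 0.0728), that of EB day 3 without EB day 3 replicate 1 (0.114), and that of ML day 1 without either array of ML day 1, EB day 1 or EB day 4 (0.058 to 0.197). From day 1 to day 3 the EB arrays went down and the ML arrays up, but the difference between these changes was not called (-1.61 ± 0.69, adjusted p = 0.483).

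Mmp17, the other lipid-anchored MMP (chromosome 5, 130113835 to 130113894), measured 0.43 and 1.24 in undifferentiated cells, 0.94 and 0.92 at EB day 1, 0.47 and 0.03 at EB day 3, and -0.60 and -0.87 at EB day 4. In ML the levels were 0.23 and 0.63 at day 1 and -0.52 and 0.69 at day 3. EB day 4 was below every other array, and 2.96-fold lower than undifferentiated cells (-1.56 ± 0.41, adjusted p = 0.0145), which was not called without the second undifferentiated array (0.094) or EB day 4 replicate 2 (0.079). Mmp16 and Mmp24 were tested and not called, with both arrays above background in 3 groups and 1 group. Outside the membrane-type genes, Mmp23 (chromosome 4, 155025377 to 155025436) measured -2.90 and -2.41 in undifferentiated cells, -2.96 and -2.50 at EB day 1, -3.57 and -3.01 at EB day 3, and -3.79 and -3.61 at EB day 4. ML days 1 and 3 stood at -2.51 and -2.39, and at -2.52 and -1.69, respectively. It was 2.06-fold lower at EB day 4 than in undifferentiated cells (-1.04 ± 0.33, adjusted p = 0.0319), but not by normexp correction (adjusted p = 0.672), quantile normalization (0.0831) or the authors' deposited values (0.0825), or without the second undifferentiated array (0.159) or either EB day 4 array (0.136 and 0.0841). Mmp28 was above background in 5 groups, with group means from -4.84 to -4.33, and was not called.

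**Figure D5:**
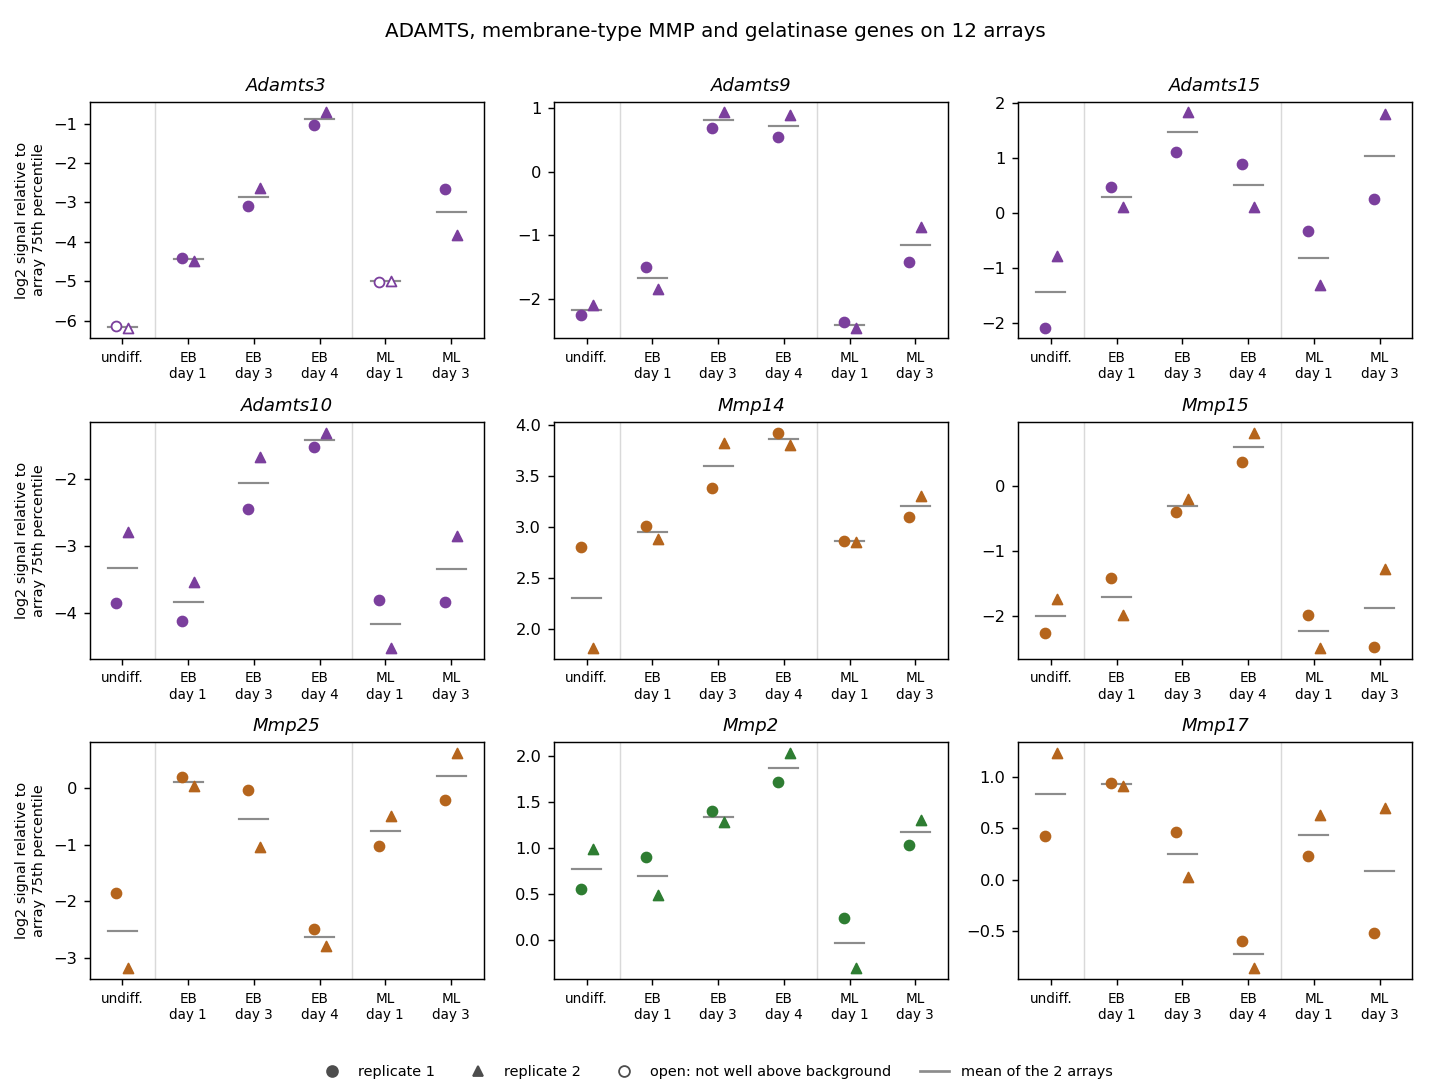
Log2 signal relative to the array's 75th percentile of 4 ADAMTS genes (purple), 4 membrane-type MMP genes (orange) and the gelatinase gene Mmp2 (green) in 6 groups, with a circle for replicate 1, a triangle for replicate 2, a line at their mean and open symbols for spots not well above background. Adamts3, Adamts9, Adamts10 and Mmp15 sit highest at EB days 3 and 4, Mmp25 is low in undifferentiated cells and at EB day 4, and Mmp17 is lowest at EB day 4 (-0.60 and -0.87).

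Adamts3, which trims procollagen and activates the precursor of the growth factor VEGF-C, had more calls than any other member, 8 of 10 comparisons and all higher at the later stage. Its probe (chromosome 5, 90104154 to 90104213) measured -6.13 and -6.18 in undifferentiated cells and -5.02 and -4.99 at ML day 1, not above background in either group. It measured -4.40 and -4.49 at EB day 1, -3.09 and -2.63 at EB day 3, -1.04 and -0.71 at EB day 4, and -2.65 and -3.81 at ML day 3. EB groups did not overlap in time, and ML day 3 overlapped EB day 3. Adamts3 was at least 27.9-fold higher at EB day 4 (adjusted p = 3.84e-05), at least 7.07-fold at EB day 3 (adjusted p = 0.000597), at least 5.48-fold at ML day 3 (adjusted p = 0.00101) and at least 2.36-fold at EB day 1 (adjusted p = 0.0181) than in undifferentiated cells. It rose 2.99-fold from EB day 1 to day 3 (1.58 ± 0.35, adjusted p = 0.0341), 3.96-fold from EB day 3 to day 4 (1.98 ± 0.35, adjusted p = 0.0102) and at least 3.41-fold from ML day 1 to day 3 (adjusted p = 0.0139). ML day 1 was called higher than undifferentiated cells with both groups below background (adjusted p = 0.0493), so no fold is given.

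The Adamts3 calls for EB day 3, ML day 3 and EB day 4 against undifferentiated cells held under every setting that covered them. The call at EB day 1 ended without the second undifferentiated array (0.0772), without either EB day 1 array (0.107 and 0.0857) and with normexp correction (0.48). Normexp also ended the calls from EB day 1 to day 3 (0.184) and ML day 1 to day 3 (0.178), the first of which ended too without any of 7 arrays (up to 0.251, without EB day 3 replicate 2) and the second without either ML day 1 array (0.0659 and 0.0938). The EB day 3 to day 4 call ended without EB day 3 replicate 1 (0.0818) or EB day 4 replicate 2 (0.07), and that for ML day 1 against undifferentiated cells ended without any of 10 arrays (up to 0.185). The 2 other Adamts3 probes were not above background in any group. In contrast to the chromosome 9 genes, the 250 bases upstream of Adamts3 (chr5:89883335-89883584, minus strand, RefSeq, build GRCm38.p6) are 78.0% G or C with 35 CpG, no AP-1 or TATA motif and 1 GC box (GGGCGG on either strand, capitals).
Adamts3: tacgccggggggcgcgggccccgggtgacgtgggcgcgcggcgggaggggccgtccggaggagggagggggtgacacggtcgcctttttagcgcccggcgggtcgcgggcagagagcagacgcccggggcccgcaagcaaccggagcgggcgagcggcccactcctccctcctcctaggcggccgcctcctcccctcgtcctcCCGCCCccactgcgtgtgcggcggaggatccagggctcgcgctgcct
GGGCGG occurs in 32.7% of the 32851 windows.

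The other procollagen proteases differed from Adamts3. Adamts2, the main enzyme that removes the amino-terminal propeptide of fibrillar procollagens in skin (chromosome 11, 50617472 to 50617531), measured -4.15 and -3.92 in undifferentiated cells, -1.99 and -3.21 at EB day 1, -2.61 and -3.37 at EB day 3, and -2.13 and 0.48 at EB day 4. Monolayer levels were -2.78 and -2.27 at day 1, then -3.11 and -2.29 at day 3. Undifferentiated cells lay below every other array, and the EB day 4 arrays were 2.61 log2 units apart. Adamts2 was higher at EB day 4 than in undifferentiated cells (3.21 ± 0.75, adjusted p = 0.00884), by 1.91 without EB day 4 replicate 2 and 4.51 without replicate 1, both called. The mean of the probes was not called (adjusted p = 0.111), and it includes a dim probe (50590188 to 50590247) that was not above background on either EB day 4 array and gives no direction there. A further probe, named Adamts2 in the older annotation alone (50611478 to 50611537), was above background at EB day 4 (-2.96 and -1.47) and on no other array. Adamts14 (chromosome 10, 60663111 to 60663170) varied little, with group means between -2.30 and -1.49. It measured -1.40 and -1.58 in undifferentiated cells, -1.64 and -1.65 at EB day 1, -1.80 and -1.63 at EB day 3, and -2.34 and -2.27 at EB day 4. At ML day 1 it measured -1.56 and -1.48, then -1.76 and -1.43 at ML day 3. EB day 4 was the lowest group without overlap, 1.76-fold below undifferentiated cells (-0.81 ± 0.19, adjusted p = 0.00953, or 0.0589 without EB day 4 replicate 1).

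Adamts9, a proteoglycanase that cuts versican (chromosome 6, 92723051 to 92723110), rose by the brightest probe in both formats between days 1 and 3 and was higher in EB at day 3. It measured -2.26 and -2.11 in undifferentiated cells, -1.50 and -1.84 at EB day 1, 0.69 and 0.94 at EB day 3, and 0.55 and 0.90 at EB day 4. The ML arrays gave -2.36 and -2.46 at day 1 and -1.42 and -0.88 at day 3. EB days 3 and 4 overlapped each other and lay above all other groups. Adamts9 was 7.98-fold higher at EB day 3 (3.00 ± 0.25, adjusted p = 0.000206), 7.49-fold at EB day 4 (2.91 ± 0.25, adjusted p = 8.6e-05) and 2.04-fold at ML day 3 (1.03 ± 0.25, adjusted p = 0.0181) than in undifferentiated cells. It rose 5.59-fold from EB day 1 to day 3 (2.48 ± 0.25, adjusted p = 0.00258) and 2.40-fold from ML day 1 to day 3 (1.26 ± 0.25, adjusted p = 0.0143), and EB day 3 exceeded ML day 3 by 3.90-fold (1.97 ± 0.25, adjusted p = 0.00576). The rise was 1.22 ± 0.35 log2 units larger in EB than in ML, which was not called (adjusted p = 0.257).

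The calls of Adamts9 at EB days 3 and 4 against undifferentiated cells and from EB day 1 to day 3 held under every setting that covered them. The format difference at day 3 ended without EB day 3 replicate 2 (0.0524), the ML rise without either ML day 1 array (0.0614 and 0.11), and ML day 3 against undifferentiated cells without either undifferentiated array or ML day 3 replicate 2 (up to 0.0636). A probe named Adamts9 in the older annotation alone (92876348 to 92876407), above background on all arrays, gave 3.22 ± 0.51 at EB day 3 and 2.14 ± 0.51 at EB day 4 against undifferentiated cells. Another, dim probe (92837403 to 92837711) was above background on both EB day 3 arrays (-4.18 and -4.64) and ML day 1 replicate 1 and on no other array. With the mean of the 2 probes named in both annotations, the ML rise was 0.28 (adjusted p = 0.607) and the change at ML day 3 against undifferentiated cells 0.76 (0.135), so both calls ended; the dim probe enters that mean on arrays where it was not above background. With the compared groups fitted alone, the ML rise (adjusted p = 0.0987), ML day 3 against undifferentiated cells (0.163) and the format difference at day 3 (0.15) ended as well.

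Adamts1, another versican-cutting protease (chromosome 16, 85795044 to 85795103), moved the other way. It measured 0.31 and -0.43 in undifferentiated cells, -1.82 and -1.95 at EB day 1, -1.33 and -1.36 at EB day 3, and -0.41 and -0.71 at EB day 4. In ML the levels were -1.29 and -1.15 at day 1 and -0.38 and -0.28 at day 3. It was lowest at day 1 of EB and closer to undifferentiated cells at the latest day of each format, where both groups overlapped them. Adamts1 was 3.53-fold lower at EB day 1 (-1.82 ± 0.25, adjusted p = 0.00596), 2.43-fold at EB day 3 (-1.28 ± 0.25, adjusted p = 0.00828) and 2.23-fold at ML day 1 (-1.16 ± 0.25, adjusted p = 0.019), the last not called without either ML day 1 array. With the compared groups fitted alone, the Adamts1 calls at EB day 3 (adjusted p = 0.0762) and ML day 1 (0.0849) ended. A dimmer Adamts1 probe was above background in undifferentiated cells (-2.85 and -3.63) and at ML day 3 (-4.53 and -4.37) and on no array of the other groups. By that probe neither ML day 3 nor EB day 4 (-5.89 and -6.34, below background) overlapped undifferentiated cells, so the 2 probes disagree there.

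Adamts15, also a proteoglycanase (chromosome 9, 30707033 to 30707092), measured -2.08 and -0.79 in undifferentiated cells, 0.47 and 0.11 at EB day 1, 1.1 and 1.83 at EB day 3, and 0.90 and 0.11 at EB day 4. ML days 1 and 3 stood at -0.33 and -1.31, and at 0.25 and 1.80, respectively. Undifferentiated cells overlapped ML day 1 alone. Adamts15 was higher than in undifferentiated cells at EB day 3 (2.90 ± 0.61, adjusted p = 0.0107), ML day 3 (2.46 ± 0.61, adjusted p = 0.0201) and EB day 4 (1.94 ± 0.61, adjusted p = 0.0315). Without the first undifferentiated array these changes were 2.25, 1.81 and 1.29 and none was called (adjusted p = 0.0559, 0.101 and 0.185). The calls also ended without EB day 3 replicate 2 (0.0711), ML day 3 replicate 2 (0.0781) and either EB day 4 array (0.165 and 0.0531).

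Adamts8, which lies near Adamts15 on chromosome 9 (30770220 to 30770279), measured -2.53 and -2.80 in undifferentiated cells, -1.54 and -1.77 at EB day 1, -1.22 and -1.52 at EB day 3, and -2.60 and -3.26 at EB day 4. Monolayer levels were -1.66 and -2.30 at day 1, then -1.50 and -0.49 at day 3. As with Mmp25, undifferentiated cells and EB day 4 overlapped and were the lowest groups. The levels of Adamts8 and Mmp25 correlated at 0.88 over the 12 arrays. Adamts8 was higher than in undifferentiated cells at EB day 3 (2.46-fold, 1.30 ± 0.37, adjusted p = 0.0356) and ML day 3 (3.17-fold, 1.67 ± 0.37, adjusted p = 0.0138) and fell 2.96-fold from EB day 3 to day 4 (-1.57 ± 0.37, adjusted p = 0.0293). Each call ended without an array, up to 0.145 without EB day 3 replicate 1, 0.0722 without the second undifferentiated array, and 0.184 without EB day 4 replicate 2, respectively. With normexp correction the change was 0.65 at EB day 3 (adjusted p = 0.0963) and -0.40 from EB day 3 to day 4 (0.291), neither called. The remaining proteoglycanase genes were dim. Adamts20 (chromosome 15, 94181910 to 94181969) measured -5.13 and -5.44 in undifferentiated cells, -3.86 and -3.51 at EB day 1, -4.74 and -4.10 at EB day 3, and -3.39 and -3.86 at EB day 4. At ML day 1 it measured -4.96 and -4.49, then -5.69 and -3.80 at ML day 3. It was higher at EB day 4 than in undifferentiated cells, where 1 of 2 arrays was above background (1.67 ± 0.53, adjusted p = 0.0329), and not called without any of those 4 arrays (0.0702 to 0.152). Adamts4 and Adamts5, known for cutting aggrecan in cartilage, were tested and not called. Adamts5 had arrays 4.75 log2 units apart at EB day 3, with 1 of the 2 above background.

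Of the other ADAMTS genes, Adamts10, which binds fibrillin microfibrils (chromosome 17, 33690213 to 33690272), measured -3.86 and -2.79 in undifferentiated cells, -4.12 and -3.54 at EB day 1, -2.46 and -1.68 at EB day 3, and -1.53 and -1.32 at EB day 4. The ML arrays gave -3.81 and -4.52 at day 1 and -3.84 and -2.86 at day 3. EB days 3 and 4 lay above all other groups. Adamts10 was 3.73-fold higher at EB day 4 than in undifferentiated cells (1.90 ± 0.47, adjusted p = 0.0116), not called without the first undifferentiated array (0.0773) or EB day 4 replicate 2 (0.0626), and its 2 probes correlated at 0.98 over the arrays. Adamts19 measured -4.19 and -4.54 in undifferentiated cells, -3.60 and -3.98 at EB day 1, -2.82 and -3.48 at EB day 3, -2.81 and -3.30 at EB day 4, -4.99 and -4.90 at ML day 1, where it was below background, and -4.08 and -2.85 at ML day 3. It was 2.48-fold higher at EB day 4 than in undifferentiated cells (1.31 ± 0.40, adjusted p = 0.029) and at least 2.79-fold higher at ML day 3 than at ML day 1 (adjusted p = 0.0447). Both calls were lost without any array of the groups compared except ML day 3 replicate 1 (adjusted p up to 0.155 and 0.192), and the second also without either array of undifferentiated cells, EB day 1 or EB day 4 (0.053 to 0.0672) and with normexp correction (0.38, adjusted p = 0.275). Adamts7 was above background in all groups, with means between -1.80 and -1.34, and Adamts12 in 2 groups, and neither was called.

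Several members had courses alike in EB. Over the 12 arrays Mmp15 correlated with Adamts9 at 0.92 and with Adamts10 at 0.93, and Adamts3 with Mmp14 at 0.88 and Adamts9 at 0.85. Timp1 ran opposite, at -0.95 with Adamts3 and -0.89 with both Adamts9 and Mmp15. These arrays share groups, slides and scaling, so the correlations are descriptions. At EB day 4 against undifferentiated cells, 40.5% of all genes were called, 18.6% higher and 21.9% lower. Markers of other cell types had also moved there, with 4 of 7 trophoblast markers higher and 2 lower, and 5 of 12 parietal endoderm markers higher and 2 lower. In the same comparison 8 of 8 stem cell markers were lower, 6 of 8 endothelial markers lower and 1 higher, and 2 of 8 visceral endoderm markers higher and 2 lower. Their part in the protease differences was not tested.

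Genes that act with the family were counted from lists of activators, substrates and relatives, and those named are among the largest called changes of their list. Of 12 activators and surface regulators tested, 6 were higher and 2 lower at EB day 4 than in undifferentiated cells (median change 0.79, all genes -0.05), where 40.5% of all genes were called, 18.6% higher and 21.9% lower. Pcsk5, a proprotein convertase, was below background in undifferentiated cells (-6.08 and -6.13) and measured 0.57 and -0.37 at EB day 4, at least 55.0-fold higher (adjusted p = 0.000929). Its relative Pcsk6 went from 2.52 and 2.43 to 0.19 and 0.00, 5.20-fold lower (-2.38 ± 0.22, adjusted p = 0.000121). Cd44, a surface receptor that can dock MMPs, was lower at EB day 1 (-3.57 ± 0.72, adjusted p = 0.0178), and Cav1, the caveolin of membrane pits, at EB day 4 (-5.88 ± 0.62, adjusted p = 0.000193). Both were higher on the first undifferentiated array, at 2.97 against 0.60 and 2.80 against 1.18.

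The plasminogen system, which activates several MMP precursors, had 9 tested genes, with 1 higher and 3 lower at EB day 4 and 0 higher and 3 lower at EB day 1 (medians -0.64 and -0.57), against 40.5% and 13.2% of all genes called. Plau, the urokinase gene, was at least 2.32-fold lower at EB day 3 (adjusted p = 0.0189). Anxa2, a plasminogen-binding surface protein, was 13.3-fold lower at EB day 1 (-3.74 ± 0.50, adjusted p = 0.00511), while its partner S100a10 was 5.21-fold higher at ML day 3 (2.38 ± 0.45, adjusted p = 0.0072).

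Among 10 tested ADAMTS substrates, 2 were higher and 3 lower at EB day 4 than in undifferentiated cells (median -0.10), against 40.5% of all genes called. Fbn2, a fibrillin, went from -3.37 and -3.93 to 0.03 and 0.83 (16.9-fold higher, 4.08 ± 0.42, adjusted p = 0.00018). The small proteoglycans Dcn (at least 27.1-fold lower, adjusted p = 0.00038) and Bgn (at least 12.6-fold lower, adjusted p = 0.000266) fell below background at EB day 4, and Dcn is on the fibroblast list as well. Vwf, the substrate of Adamts13, was lower at ML day 3, where 1 of 2 arrays was above background (-4.33 ± 0.37, adjusted p = 0.000319). Of 7 ADAMTS-like and astacin genes, 2 were higher and 3 lower at EB day 4 (median -1.11), against the same 40.5%, among them Pcolce, the enhancer of procollagen C-proteinase, at 12.9-fold lower (-3.68 ± 0.28, adjusted p = 6e-05), and Adamtsl2 at least 5.40-fold higher (adjusted p = 0.00693). Adamtsl4 was at least 6.41-fold lower at EB day 3 (adjusted p = 0.000285). Of 9 ADAM membrane proteases, 0 were higher and 4 lower at EB day 4 (median -1.18), against 40.5% of all genes called and 21.9% lower, among them Adam23 (6.68-fold, -2.74 ± 0.41, adjusted p = 0.00107), and Adam19 was 7.06-fold higher in EB than in ML at day 3 (2.82 ± 0.34, adjusted p = 0.00508).

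Promoter composition was set beside detection for the members found in the RefSeq table. It held 32 windows of 29 of the 42 genes. The 13 windows of the 12 matched genes above background in all groups had 54.4% to 78.0% G or C (median 65.6%) and a median of 17 CpG. The 10 windows of the 8 matched genes above background in none had 38% to 65.2% (median 45.2%) and a median of 1 CpG, and all 32851 windows a median of 52.4% and 6 CpG. The GC box was in 11 of the 13 windows of the first set and 1 of the 10 of the second. The AP-1 motif was in 7 of the 32 windows, which belong to Mmp3, Mmp10, Mmp13, Mmp1a, Mmp7, Mmp12 and Mmp20, all in the chromosome 9 stretch. These shares are descriptions of neighbouring, related genes.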

How the data were processed

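Total RNA of 12 samples was labelled with Cy3 and hybridised to one-colour Agilent arrays, per the labels' protocols. The deposited values are spot intensities with background and outlier flags; Agilent Feature Extraction is version 9.5.1.1 per the submitters' processing notes, whereas the file headers give 10.5.1.1 (undifferentiated), 10.7.1.1 (EB day 4) and 10.7.3.1 (other groups). The log2 values of the authors' deposited value table served as an alternative. The deposited processed intensity was log2 transformed relative to each array's 75th percentile (43379 spots, controls left out), without outlier-flagged spots. Probes well above background on both arrays of some group were kept (26174 of 41174), and a gene was its kept probe with the highest mean. Symbols came from RefSeq accessions for 26876 probes and otherwise from the file. Group means of all 12 arrays were fitted with limma 3.58.1 (R 4.3.3; 6 residual degrees of freedom) and p-values adjusted by Benjamini-Hochberg over 18475 genes in each comparison. The script was tested on simulated data. A lower bound on a fold sets a dim group at each array's lowest signal that the software flagged as above background. Promoter sequences are RefSeq's (GRCm38.p6) and probe positions are those of the files (mm9), not assigned to exons or UTRs here. Each gene called in a comparison was named with its values, and up to 4 of each related list by size of change; 1 such gene is not reported here. The members and lists were chosen with earlier results of these data known. The number of arrays limits the precision. Alternatives were background correction, normalization, filters, probe averaging, a replicate block, subsets of arrays and leaving out each array.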

Additional observations from a re-analysis of the deposited data

How the results depend on the processing

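Of the 69 calls of a member in a comparison, 17 held under every setting that covered them, 45 ended when some array was left out and 7 under other settings alone, and none reversed. Not all of the 22 settings covered each call, since the fit of scan day 2 arrays lacks undifferentiated cells and the stricter filter drops genes such as Adamts3. With probes fitted singly, a gene counted as called by its probe with the lowest adjusted p. Fitting the compared groups alone ended 35 calls, normexp 14, no filter on dim probes 9, the mean of probes 6, and quantile normalization, the authors' values, the replicate block and scan day 2 arrays alone 3 each. Leaving out each array in turn gave 2 to 9 members called for EB day 1 against undifferentiated cells, 1 to 6 for ML day 1, 8 to 14 for EB day 3, 8 to 10 for ML day 3, 10 to 21 for EB day 4, 1 to 4 for EB day 3 against day 1, 0 to 8 for ML day 3 against day 1, 0 to 7 for EB day 4 against day 3 and 0 to 5 for EB day 3 against ML day 3. It gave 0 throughout for EB day 1 against ML day 1 and for the difference between formats. The number called over all genes varied between those fits too. With the compared groups fitted alone the member counts were 6 (EB day 3), 0 (ML day 1) and 4 (ML day 3) against undifferentiated cells, 1 for ML day 3 against day 1, 0 for EB day 3 against ML day 3 and 0 for EB day 4 against day 3. Of all 18475 genes, these fits called 1606, 363, 973, 629, 0 and 192 in the same order, against 4287, 3281, 4274, 2231, 570 and 2309 with all arrays. Without a filter on dim probes the member counts were 1 for EB day 3 against day 1, 10 for EB day 4 against day 3 and 2 for ML day 1 against undifferentiated cells. Of all 30180 genes and unnamed features, that setting called 528, 8485 and 2379, respectively. A stricter filter gave 1 member for EB day 3 against day 1 and 1 for EB day 3 against ML day 3, normexp background correction gave 1 for the latter, and arrays of scan day 2 alone gave 1 for the former. Over all genes these settings called 644 and 436 of 13862, 584 of 18475 and 778 of 18475, in the same order. The cause of these changes was not tested. The main fit did not pair samples by clone number. Differences between clone 1 and clone 2 correlated at -0.154 to 0.219 between groups, which cannot settle whether a clone number marks the same cells throughout. A fit with the replicate block called 6, 5, 13, 10 and 18 members at EB day 1, ML day 1, EB day 3, ML day 3 and EB day 4 against undifferentiated cells. Over all genes, normexp put 3843 of 6468 calls higher at EB day 4 than in undifferentiated cells, against 3435 of 7476, and 1866 of 3118 against 716 of 2309 for EB day 4 against day 3. Without a filter on dim probes, 10433 of 14628 and 6401 of 8485 calls were higher in these comparisons, respectively. Members near background, among them Mmp10, Mmp13, Timp4 and Adamts20, are limited by signal.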
